A study of Mus musculus with 5 samples.

Results

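The ONECUT genes Onecut1, Onecut2 and Onecut3 were described in the mouse embryonic forebrain at E12.5. The members are the rows of the deposited count table that carry these symbols, 3 of 56196 rows. The family was proposed with its results in this comparison already known, so its difference between the groups is given as a description, with no test. Polyadenylated RNA was sequenced from 2 wild-type and 3 EedcKO samples, all untreated C57BL/6 and described by the submitters as littermates. The Eed protein belongs to the core of Polycomb repressive complex 2, a histone methyltransferase that holds developmental genes silent, and the submitters call the mutant EedcKO. How and in which cells Eed was deleted, and whether a sample was a single embryo, are left unstated by the sources used here. The p-values below measure only the spread between these samples, which may be partly technical.

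ONECUT proteins are transcription factors that bind DNA through a single cut domain and a homeodomain. Onecut1, also called Hnf6, is best known from the liver and pancreas, where it acts in hepatocyte, bile duct and endocrine differentiation. In the nervous system the family is expressed in newly born neurons, among them retinal horizontal and ganglion cells, spinal motor neurons, and neurons of the midbrain and hypothalamus. Across the developing nervous system ONECUT factors mark early-born neurons, whereas NFI and NEUROD factors mark later-born ones.

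Onecut1 (ENSMUSG00000043013.10) lies on chromosome 9 from 74861921 to 74891781. Onecut3 (ENSMUSG00000045518.8) lies on chromosome 10 from 80494835 to 80517276 (both GENCODE M21 on mm10, plus strand). Each protein-coding transcript has 2 exons. The transcripts measure 3957 bases for Onecut1, 16234 for Onecut2 and 4776 for Onecut3, of which 1398, 1518 and 1473 bases are coding, so most of the Onecut2 transcript lies outside its coding sequence. The coding sequences are alike in 1 block, and how alike bears on whether reads of the members could be exchanged. Without gaps, 387 of 493 bases were identical between Onecut1 and Onecut3 (78.5%), 395 of 485 between Onecut1 and Onecut2 (81.4%) and 375 of 456 between Onecut2 and Onecut3 (82.2%). The longest run shared by Onecut1 and Onecut3 transcripts was 50 bases, against 26 for Onecut1 and Onecut2 and 38 for Onecut2 and Onecut3. Of the 3908 windows of 50 bases in the Onecut1 transcript, 1 occurred in Onecut3 and 0 in Onecut2. The sources used here do not state the read length. The most alike 150 coding bases of Onecut1 and Onecut3 within 1 exon are printed to show how far these members can be told apart by sequence. They are in exon 1 of each gene (chr9:74863230-74863379 and chr10:80496019-80496168, mm10, plus strand, 5′ to 3′), and capitals mark the 19 bases that differ.
Onecut1: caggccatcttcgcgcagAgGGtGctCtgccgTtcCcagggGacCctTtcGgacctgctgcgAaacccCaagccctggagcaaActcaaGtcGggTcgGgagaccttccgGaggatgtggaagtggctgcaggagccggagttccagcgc
Onecut3: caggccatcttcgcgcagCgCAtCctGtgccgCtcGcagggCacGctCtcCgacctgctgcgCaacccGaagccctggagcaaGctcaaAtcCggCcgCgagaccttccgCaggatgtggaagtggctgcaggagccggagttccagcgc
All 19 differing bases lie before the last part of the stretch, which is identical and runs into the shared run of 50 bases (coding bases 1045 to 1094 of Onecut1 and 1123 to 1172 of Onecut3). A read that fell wholly within that run could not be told apart by sequence. GENCODE also annotates the non-coding gene Gm20649 on the same strand across Onecut1, for which no value is used here.

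RefSeq's promoter table (GRCm38.p6) matched 1 of the 3 members, Onecut1. The 250 bases before its start (chr9:74861671-74861920, plus strand) are printed because CpG-rich promoters are the kind on which Polycomb complexes are known to act. Capitals mark CpG dinucleotides.
Onecut1 promoter: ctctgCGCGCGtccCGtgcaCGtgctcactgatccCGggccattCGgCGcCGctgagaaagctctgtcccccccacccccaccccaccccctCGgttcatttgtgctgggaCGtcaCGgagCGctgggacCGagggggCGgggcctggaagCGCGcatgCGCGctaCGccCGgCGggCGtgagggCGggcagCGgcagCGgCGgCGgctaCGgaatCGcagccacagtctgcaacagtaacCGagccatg
The window held 31 CpG dinucleotides and was 71.6% G or C. Across 32851 promoter windows of the same length the medians were 6 CpG and 52.4%, and 94.8% of windows held fewer CpG. The ONECUT core motif ATCAAT was searched with its reverse complement ATTGAT, and ATCGAT, which is its own reverse complement, was searched beside it. The Onecut1 window held neither. Of all windows, 6.72% held ATCAAT on either strand and 0.728% held ATCGAT.

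The libraries held 4820630 to 5026381 counts each. The 8 listed genes of telencephalic progenitors summed to 1619 to 2011 CPM (counts scaled to library size with TMM factors). Of these genes Pax6 rose (log2 fold change 0.65, edgeR adjusted p = 0.0286). Eed, the targeted gene, had 404 counts in the library WT1 (wild type 1), 238 in the library labelled WT2 and 251, 233 and 247 in EedcKO 1, 2 and 3. The Eed count of the library labelled WT2 thus went against its label, though a count over the whole gene may include exons outside the deletion. The 39 HOX genes, Polycomb targets that the forebrain keeps silent, summed to 2 counts in WT1, 134 in the library labelled WT2 and 62 to 184 in EedcKO. Xist and Y-linked counts marked EedcKO 2 and 3 as male and the other libraries as female. Results below are given with and without the library labelled WT2 where they change. The 7 erythroid markers summed to 156 to 340 CPM, with the most in the library labelled WT2. Their smallest edgeR adjusted p were those of Hbb-bt (0.355) and Hbb-y (0.502). For the 11 midbrain, hindbrain and spinal cord markers the sum was 21.5 CPM in WT1 and 30.5 in the library labelled WT2. It was 8.77, 24.2 and 7.18 CPM in EedcKO 1, 2 and 3. The smallest edgeR adjusted p among them were those of Gbx2 (0.104) and Hoxb8 (0.702). Gbx2 had 77 and 82 counts in WT1 and the library labelled WT2, whereas En2 and Hoxb8 each had 0 and 11.

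Onecut3 had 53 counts in WT1, with a 95% Poisson interval of 39.7 to 69.3. The library labelled WT2 had 22 (13.8 to 33.3). In turn Onecut3 had 2, 4 and 1 counts in EedcKO 1, 2 and 3, with an upper bound of 10.2 at most. The wild-type libraries stood apart from the EedcKO libraries, in which the gene was close to the limit of detection at this depth (3 counts, or 0.610 to 0.632 CPM). In CPM the mean was 7.82 ± 4.74 (SD, n = 2) in wild type and 0.483 ± 0.316 (SD, n = 3) in EedcKO. The log2 fold change of EedcKO over wild type was -3.94. Summed over each group and corrected for depth, wild type stood 16.1-fold above EedcKO, with a counting interval of 7.43 to 41.4. That ratio was 9.26 with the library labelled WT2 alone in its group (3.82 to 25.7) and 23.1 with WT1 alone (10.5 to 60.3). Intervals of counts and ratios cover counting error only.

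Onecut2 (ENSMUSG00000045991.19, chromosome 18 from 64340020 to 64400987, plus strand), the member with the most counts in each library, had 285 counts in WT1 and 158 in the library labelled WT2. EedcKO 1, 2 and 3 had 106, 100 and 63 counts. All EedcKO libraries were below both wild-type libraries, but the gap between the 2 groups was narrower than the gap between the 2 wild-type libraries. The mean was 46.1 ± 19.8 CPM (SD, n = 2) in wild type and 18.6 ± 4.96 CPM (SD, n = 3) in EedcKO, a log2 fold change of -1.31. Wild type stood 2.47-fold above EedcKO by group sums (2.12 to 2.89), 1.73-fold with the library labelled WT2 alone (1.41 to 2.12) and 3.24-fold with WT1 alone (2.73 to 3.84). The log2 fold change was -0.81 without WT1 and -1.69 without the library labelled WT2.

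Onecut1 was near the limit of detection throughout. It had 11 counts in WT1 (5.49 to 19.7), 4 in the library labelled WT2 (1.09 to 10.2), and 1, 2 and 0 in EedcKO 1, 2 and 3. The 0 in EedcKO 3 has a 95% Poisson interval of 0 to 3.69 counts, and the detection limit of 3 counts is 0.615 CPM in that library. The intervals of the library labelled WT2 and of EedcKO 2 (0.242 to 7.22) overlapped, so these 2 libraries could not be told apart at this depth. Means were 1.57 ± 1.06 CPM (SD, n = 2) and 0.208 ± 0.207 CPM (SD, n = 3). By group sums, 15 counts against 3, wild type stood 7.50-fold higher with a counting interval of 2.12 to 40.4. With the library labelled WT2 alone in its group the ratio was 3.93 and the interval, 0.665 to 26.8, included 1.

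**Figure D1:**
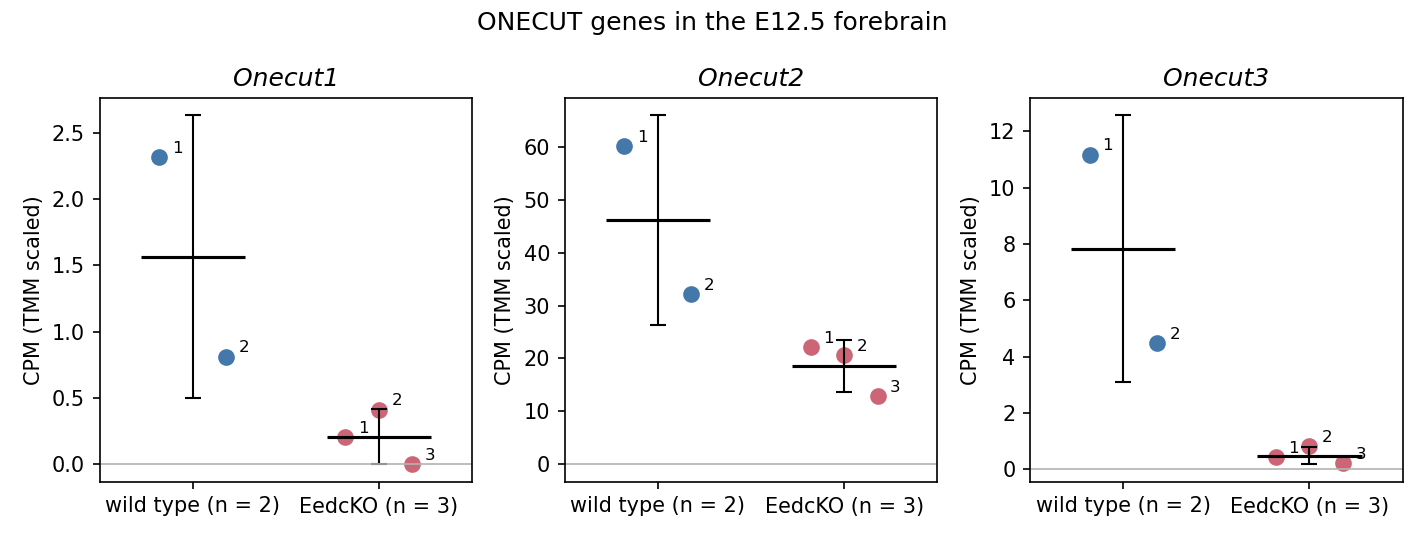
CPM of Onecut1, Onecut2 and Onecut3 (vertical axes, linear, a scale for each gene) in 2 wild-type libraries (blue) and 3 EedcKO libraries (red). Numbers give the replicate, horizontal bars the group mean and whiskers 1 SD. In each panel WT1 is highest, the library labelled WT2 is next and EedcKO 3 is lowest.

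Of the 3 members, 2 had enough counts to enter the test across all genes, and Onecut1 did not. Both had groups that did not overlap with EedcKO lower, as had 17.4% of the 13989 genes tested. Among all genes tested 3.20% were past an adjusted p of 0.05 (edgeR), 2.17% as lower and 1.04% as higher in EedcKO. Because the family was chosen on this contrast, no test result is given for its members. Nothing is read from their groups not overlapping. The number of genes called depended on single libraries: 448 of 13989 passed with all 5, 1012 without WT1, 882 without the library labelled WT2, 262 without EedcKO 1, 84 without EedcKO 2 and 0 without EedcKO 3 (1887 at an unadjusted edgeR p under 0.05). Calls given below for other genes carry that dependence. The gene lists below were written with earlier results of these data known, and some share genes. In bulk tissue, fewer cells that express a gene and less RNA per cell cannot be told apart.

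In all 3 members WT1 was highest, the library labelled WT2 second and EedcKO 3 lowest, while EedcKO 1 was above EedcKO 2 for Onecut2 and below it for the other two. Of all genes tested, 2432 had both wild-type libraries above every EedcKO library, and 510 of these (3.65% of all tested) had this order. The family was proposed with its fall in EedcKO known, so nothing is read from the members having it. Onecut1 was not among the genes tested, and its order rests on few counts. WT1 exceeded the library labelled WT2 by 1.87-fold for Onecut2 (counting interval 1.53 to 2.29) and by 2.50-fold for Onecut3 (1.49 to 4.31). For Onecut1 the ratio was 2.85, with an interval of 0.845 to 12.3 that included 1. WT1 was at least 1.5-fold above the library labelled WT2 in 6.82% of all genes tested. Among the females, EedcKO 1 alone could be set against the wild type. The log2 fold changes in those 3 libraries were -1.05 for Onecut2, -4.14 for Onecut3 and -2.75 for Onecut1, against -1.31, -3.94 and -2.77 over all 5. No wild-type library was male, so within the males there was no comparison.

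Levels of different genes are compared on the TPM scale, which divides by length. Onecut2 had 17.7 TPM in WT1, 9.56 in the library labelled WT2 and 6.66, 6.16 and 3.82 in EedcKO 1, 2 and 3. Onecut3 had 11.2, 4.53, 0.427, 0.837 and 0.206 TPM in the same libraries, and Onecut1 2.70, 0.956, 0.248, 0.486 and 0. In wild type Onecut3 was therefore within the reach of Onecut2 per unit of length, although it had far fewer counts, because the Onecut2 transcript is much longer. The 3 genes summed to 31.6 TPM in WT1, 15.0 in the library labelled WT2 and 7.33, 7.48 and 4.03 in EedcKO. Onecut3 made up 35.4% and 30.1% of that sum in wild type and 5.82%, 11.2% and 5.12% in EedcKO. Onecut2 made up 56.0% and 63.6% in wild type and 90.8%, 82.3% and 94.9% in EedcKO. These shares did not overlap between the groups for either gene, and the share of Onecut3 in the library labelled WT2 was close to that in WT1. Both are parts of 1 sum, so they are not separate observations, and nothing is read from them in a family chosen on this contrast. The Onecut3 shares in EedcKO 1, 2 and 3 rest on 2, 4 and 1 counts. Onecut1 made up 8.54% and 6.35% in wild type and 3.38%, 6.50% and 0% in EedcKO, shares that did overlap.

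**Figure D2:**
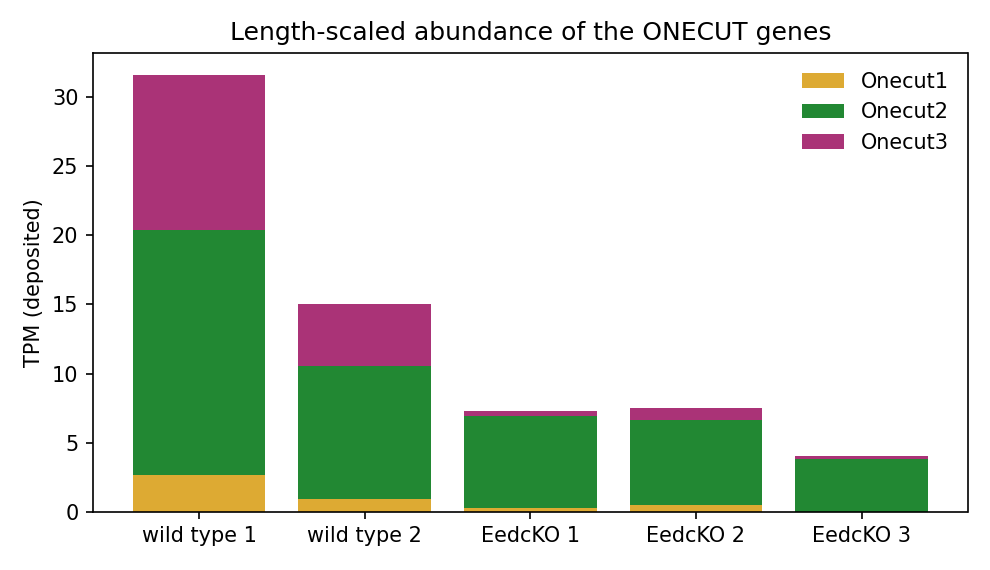
Deposited TPM of the 3 ONECUT genes stacked for each of the 5 libraries (vertical axis, linear from 0). The stack is 31.6 TPM high in WT1 and 4.03 in EedcKO 3, and the Onecut3 layer is thin in the EedcKO libraries.

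Among the 4 genes whose pattern over the 5 libraries was most like each member, those named here were found from log2 CPM centred on each gene's own mean, by the root mean square difference. For Onecut2 they were Six3os1 (a difference of 0.10 log2 units), the collagen gene Col22a1 (0.10), Brinp3 (0.11) and the potassium channel gene Kcnc2 (0.14). Six3os1 is antisense to Six3 and had 865, 424, 305, 247 and 178 counts in WT1, the library labelled WT2 and EedcKO 1, 2 and 3. Whether counting used strand is not given, so reads of such a pair may not be told apart. Onecut3 was most like Irs4, an insulin receptor substrate (0.53). Npas1, a transcription factor of GABAergic neurons (0.75), and the homeodomain factor Uncx (0.77) were also among its 4. Irs4 had 148, 58, 14, 16 and 9 counts in the same order of libraries, and Npas1 had 60, 36, 10, 10 and 1. The 4 genes most like Onecut1 included Irs4 (0.51) and Npas1 (0.51), but its own counts were few. Among themselves the members differed by 0.66 (Onecut1 and Onecut3), 0.83 (Onecut1 and Onecut2) and 1.27 log2 units (Onecut2 and Onecut3). Onecut2 and Onecut3 differed most, in the size of the steps and in EedcKO 1 and 2, of which EedcKO 1 was higher for Onecut2 and EedcKO 2 for Onecut3.

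**Figure D3:**
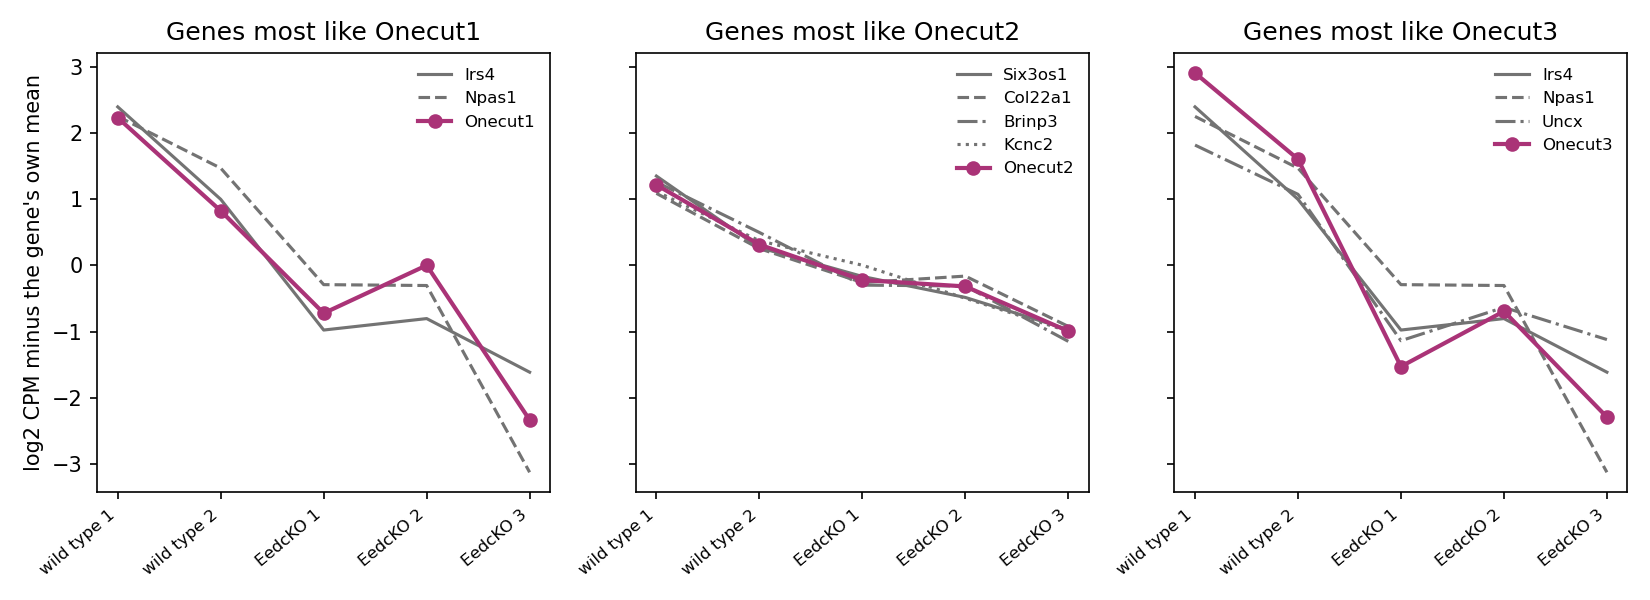
Log2 CPM minus each gene's own mean (vertical axis) in the 5 libraries (horizontal axis) for each ONECUT gene (purple) and the genes named in the text from the 4 most like it (grey). Lines only join the values of a gene. The steps are steepest for Onecut3 and shallowest for Onecut2, whose 4 nearest genes lie within 0.14 log2 units.

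The 12 nearest tested protein-coding genes, 2 on each side of each member, had edgeR adjusted p-values between 0.157 and 0.988. Atp8b3, 2.3 kb beyond Onecut3, had 11, 12, 7, 9 and 6 counts with EedcKO at -0.64 on the log2 scale (SE 0.43, edgeR adjusted p = 0.525). Rexo1, 23.6 kb away, had -0.01 (SE 0.11), and on the other side Tcf3, a bHLH factor 61.2 kb away, had 0.13 (SE 0.10). Beside Onecut2, the sialyltransferase St8sia3 had -0.44 (SE 0.14, edgeR adjusted p = 0.157) and Fech, a heme synthesis enzyme, -0.48 (SE 0.23, edgeR adjusted p = 0.351). Fam214a, 61.1 kb beyond Onecut1, had 452, 347, 377, 432 and 371 counts and a log2 fold change of -0.03 (SE 0.14). Each member's own log2 fold change was more negative than those of its 4 neighbours, a difference that was not tested. The members, unlike the neighbours, were proposed with their fall known, so nothing is read from it. The value of Onecut1 comes from the fit without a count filter and rests on 15 against 3 counts.

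**Figure D4:**
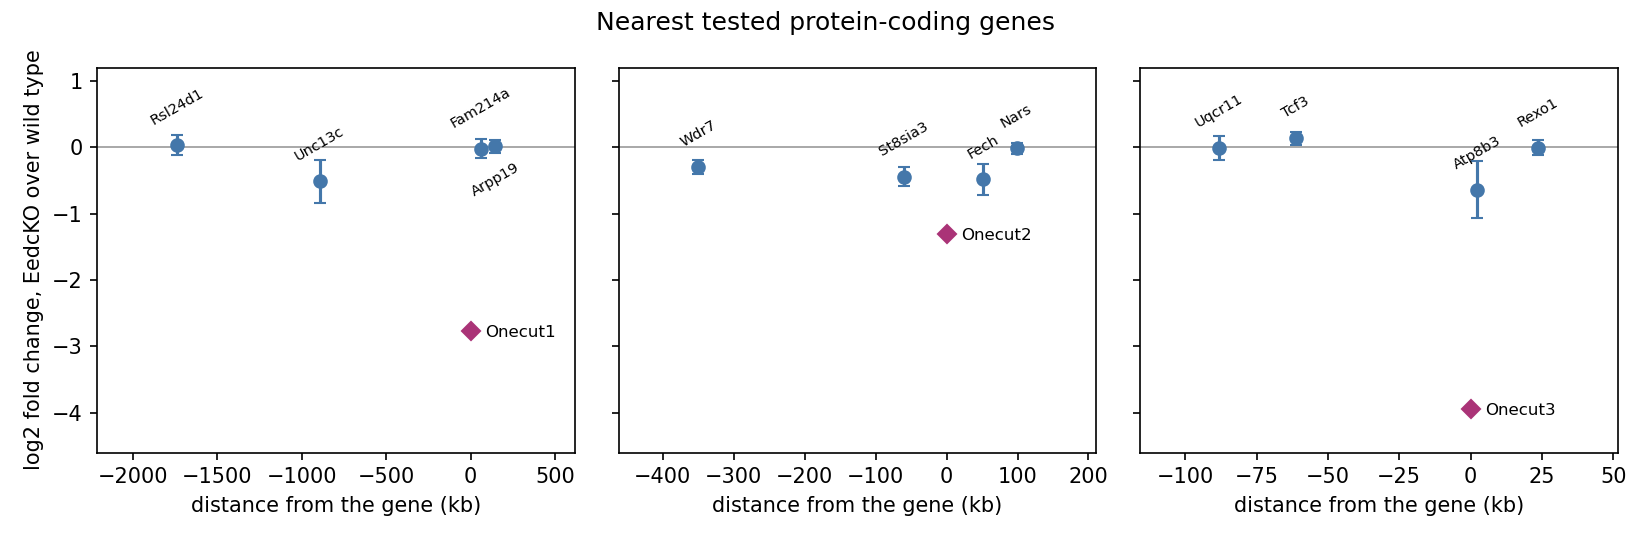
Log2 fold change of EedcKO over wild type (vertical axis) against distance in kb from each ONECUT gene (horizontal axis, a scale for each panel) for the 2 nearest tested protein-coding genes on each side (blue, with 1 SE) and for the ONECUT gene itself (purple, no error drawn; fit without a count filter). The neighbours lie between -0.64 and 0.13.

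Cux1, Cux2 and Satb1 also encode proteins with cut domains. Satb1, a chromatin organizer, had 890 counts in WT1, 790 in the library labelled WT2 and 806, 846 and 881 in EedcKO 1, 2 and 3, and the groups overlapped (log2 fold change 0.00, SE 0.10, edgeR adjusted p = 0.989). Cux1 had a log2 fold change of 0.04 (SE 0.11). Cux2, a factor of upper-layer cortical neurons, had a mean of 109 CPM in both groups. None of these 3 passed the edgeR test, and each had an unadjusted p above 0.05.

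Temporal transcription factors, which mark neurons by when they are born, had 4 increases and no decrease among 10 tested, with a median log2 fold change of 0.59 against 0.01 over all genes tested. All 4 that rose belong to the factors of later-born neurons. Neurod2 had 460, 478, 914, 1293 and 1209 counts (log2 fold change 1.28, SE 0.15, edgeR adjusted p = 0.0101) and Neurod6 had 449, 443, 943, 1158 and 1012 (1.22, SE 0.11, edgeR adjusted p = 0.00598). The NFI factors Nfib (0.77) and Nfia (0.76) rose as well. Nfix (0.70, edgeR adjusted p = 0.220) and Tcf4 (0.48, edgeR adjusted p = 0.0630) also had positive log2 fold changes but did not pass. Whether these values follow birth time or brain region was not tested. Listed factors that mark neurons born between these times had negative log2 fold changes that did not pass. They were Zfhx3 (-1.24, edgeR adjusted p = 0.181), Pou2f2 (-0.76), Zfhx4 (-0.47) and Zfhx2 (-0.17). Zfhx3 had 1328, 634, 558, 377 and 316 counts, the same order over the libraries as Onecut2. Without the library labelled WT2 all 10 passed, 6 as higher and 4 as lower. The count was 2 without EedcKO 2 and 0 without EedcKO 3 (6 at an unadjusted edgeR p under 0.05).

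Genes that act beside ONECUT factors in the retina had 4 decreases and no increase among 12 tested of 18 listed, with a median log2 fold change of -0.40. Lhx1, a LIM factor of horizontal cells, had 223, 186, 68, 75 and 48 counts (log2 fold change -1.68, SE 0.21, edgeR adjusted p = 0.0112). Prox1, which specifies horizontal cells and also acts in liver, had 649, 492, 327, 261 and 189 (-1.14, SE 0.23, edgeR adjusted p = 0.0495). Barhl2 (-0.79) and Ebf3 (-0.65) fell as well. Isl1, a LIM factor of ganglion cells and motor neurons, had 681, 360, 360, 200 and 214 counts and did not pass (-1.02, edgeR adjusted p = 0.235). Sox4 (0.03) and Sox11 (-0.01), also needed for ganglion cells, had values near 0. The count was 2 without the library labelled WT2, 2 without EedcKO 1, 1 without EedcKO 2 and 0 without EedcKO 3. The 8 listed eye markers summed to 7.38 to 21.5 CPM, of which Mitf (edgeR adjusted p = 0.619) and Pmel (0.369) could be tested, with the photoreceptor factor Crx at 0 counts in 4 libraries and 1 in the library labelled WT2.

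Among partners of ONECUT factors in motor, dopaminergic, noradrenergic and Renshaw neurons, 8 of 18 listed genes were tested, of which 2 fell and none rose (median log2 fold change -1.29). Ddc, an enzyme of dopamine synthesis, had 55, 38, 14, 4 and 7 counts (-2.47, SE 0.48, edgeR adjusted p = 0.0394). Calb1, a calcium-binding protein of Renshaw cells and other neurons, had 198, 222, 77, 58 and 47 (-1.79, SE 0.21, edgeR adjusted p = 0.00937). Mnx1, the defining motor neuron factor, had 1 count at most in any library, and Lhx3 likewise, so motor neurons were not detectable by these genes at this depth. Lmx1a, a factor of midbrain dopaminergic neurons and the cortical hem, had 25 counts in WT1 against 280 in the library labelled WT2 and 9 to 92 in EedcKO. Without WT1 or without EedcKO 2 the list had 1 call, and without EedcKO 3 it had 0.

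Lists for regions and cell types that hold ONECUT-positive or neighbouring neurons leaned to lower values in EedcKO. Because these lists were written with earlier results known, their counts are a description only. Lhx1, Lhx5, Ebf3 and Barhl2 each stand in more than 1 list, so the lists are not separate observations. Over all genes tested, 2.17% were called as lower in EedcKO. Of 16 tested hypothalamic and diencephalic genes 4 fell and none rose (median log2 fold change -1.31). They were Fezf1, with 333, 459, 87, 51 and 43 counts, Otp, with 428, 85, 0, 1 and 1, Lhx5, with 250, 178, 68, 53 and 61, and Barhl2. Sim1, a hypothalamic factor, had 180 counts in WT1 but 17 in the library labelled WT2 and 14, 10 and 5 in EedcKO (edgeR adjusted p = 0.154). Cajal-Retzius genes had 5 decreases and 1 increase among 12 tested (median -0.49), the increase being Tbr1 (log2 fold change 0.58). Car10 had 63, 103, 18, 12 and 8 counts and Cacna2d2 773, 706, 471, 486 and 443, and Lhx1, Lhx5 and Ebf3, named above, were the other decreases. Reln, which these cells secrete, had 1437, 1577, 1382, 1461 and 1625 counts (-0.02). Ventral telencephalic genes had 8 decreases of 22 tested (median -1.0). Among them were Shh, a ventralizing signal, with 124, 103, 5, 1 and 3 counts, Lhx8 with 407, 328, 35, 1 and 4, Gbx1 with 182, 196, 17, 8 and 16, and the GABA transporter Slc32a1 with 480, 366, 212, 172 and 224. Hypothalamic and diencephalic calls numbered 8 without WT1 and 9 without the library labelled WT2. Cajal-Retzius and ventral calls numbered 2 and 3 without EedcKO 2, and each of these lists had 0 without EedcKO 3.

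General neuronal genes served to follow neurons of any kind. Of 15 tested 3 fell and none rose, with a median log2 fold change of -0.19. These were the neurofilament gene Nefl (520, 373, 250, 199 and 161 counts), the synaptic vesicle gene Syt1 (890, 651, 466, 453 and 467) and Mapt, which encodes tau (2260, 2218, 1505, 1607 and 1560). Tubb3, a tubulin of all young neurons, had 1253, 1231, 1139, 1173 and 1190 counts (-0.09, edgeR adjusted p = 0.671), and Dcx had -0.04. The 15 genes summed to 4476 CPM in WT1, 3707 in the library labelled WT2 and 3403 to 3649 in EedcKO, so their sum was highest where the ONECUT genes were highest. Their part in the ONECUT values was not tested. The count of pan-neuronal calls was 5 without the library labelled WT2, 1 without EedcKO 1, and 0 without EedcKO 2 or EedcKO 3.

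**Figure D5:**
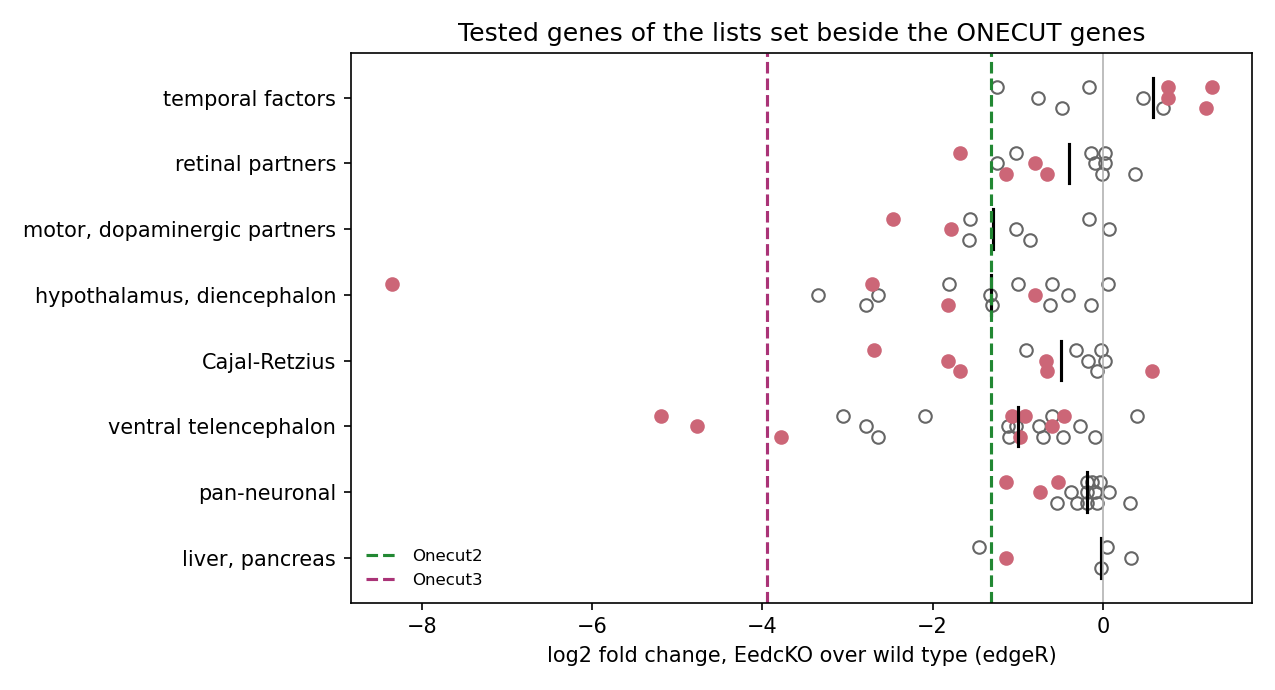
Log2 fold change of EedcKO over wild type (horizontal axis) for the tested genes of 8 lists (rows). Filled red points passed an edgeR adjusted p of 0.05, open points did not, black bars are list medians, and dashed lines mark Onecut2 (-1.31) and Onecut3 (-3.94). Filled points lie above 0 among the temporal factors and below 0 in most other lists.

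Outside the brain Onecut1 works with liver and pancreas factors. Of 18 listed endoderm genes 5 could be tested and 1 fell, Prox1, which is also a brain gene. Hnf4a and Pdx1 had 0 counts in all 5 libraries, and Alb and Afp had 1 count at most in any library. The 7 hepatocyte markers summed to 2, 10, 4, 5 and 3 counts (0.422 to 2.03 CPM), most of them from Apoa1, and Fgb and Serpina1a were at 0 throughout. These sums were above the Onecut1 counts in 4 of the 5 libraries, and the part of liver RNA in the Onecut1 values was not tested. Prox1 lost its call without WT1, without EedcKO 2 and without EedcKO 3. Sensory ganglia, another ONECUT-expressing tissue near the forebrain, were followed with 9 markers, of which 4 were tested and 1 fell, Sox10 (42, 28, 5, 1 and 3 counts). Their sum was 161 CPM in WT1, 94.5 in the library labelled WT2 and 84.1, 57.7 and 54.3 in EedcKO 1, 2 and 3. Most of it was Isl1, which ventral forebrain neurons express too. Isl1 had 144 CPM in WT1, 73.2 in the library labelled WT2 and 75.2, 41.4 and 43.9 in EedcKO 1, 2 and 3. The order of the sum over the libraries therefore rests mostly on Isl1, and nothing is read from it. Pou4f1, also tested, had another order, with 12, 35, 18, 53 and 20 counts. Of the defining ganglion markers, Tlx2 had 0 counts in 4 libraries and 1 in EedcKO 1. The part of ganglion RNA in the ONECUT values was not tested.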

How the data were processed

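RNA-seq of 5 forebrain samples was analysed from 2 deposited tables. The submitters' processing notes name the build mm10 and HISAT2 2.2.0. Counting tool, strand setting and annotation are not named in the sources used here. Per gene the authors deposited raw whole-number counts and, in a second table, TPM. Relative to Onecut1, the length behind the deposited TPM was 3.95 for Onecut2 and 1.16 for Onecut3, against 4.10 and 1.21 for the transcripts.

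Rows without a gene symbol (50.3% of rows, 2.01% to 2.16% of counts) were left out. Where 1 of several rows of a symbol (407 symbols) held 99% or more of the counts, that row took the symbol. Counts were fitted in R 4.3.3 with edgeR 4.0.16 (filterByExpr, TMM, robust glmQLFit, glmQLFTest on the group), with Benjamini-Hochberg adjustment over 13989 genes and a threshold of 0.05. The fit was also run on simulated counts with known changes, whose means and dispersions came from these data. No outcome of that run is used here, and it covers no gene below the count filter. Onecut1 fell below the count filter, so its fold change comes from the fit without one. CPM are scaled by TMM, and 0.5 was added before log2. The chi-square per gene between replicates was 2.61 to 8.21, so none was taken for a duplicate.

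The members, the gene lists and the alternatives were chosen with earlier results of these data known. Named genes were the members, the 4 genes most like each (predicted genes left out, mean log2 CPM of at least 1) and the 2 nearest tested protein-coding genes per side. Added to these were up to 4 called genes per list with the largest change, or with none called the 2 with the smallest p. Other listed genes given by name were chosen after their values were seen. A few genes that this rule picks are not reported here. Eed, Xist and Y-linked genes checked the labels. Alternatives were RLE or library-size scaling, DESeq2 1.42.0, limma-voom (limma 3.58.1), other count filters, limma-trend on log2 TPM, the replicate number as a block, embryo sex and each library left out. No column was left unmapped (0).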

Additional observations from a re-analysis of the deposited data

How the results depend on the processing

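The log2 fold changes of the 3 ONECUT genes stayed negative under each alternative that was run. Leaving out each library in turn gave -1.69 to -0.81 for Onecut2, -4.54 to -3.16 for Onecut3 and -3.61 to -1.84 for Onecut1. On log2(TPM + 1), with or without a filter on low values, Onecut3 had -2.48 and Onecut1 -1.13, smaller because the pseudocount weighs on low values. DESeq2, limma-voom and the filter at 1 CPM in 2 libraries gave no value for Onecut1, which they do not test. Depth limits Onecut1 most, since 3 counts are as many as its EedcKO libraries held together.

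Over all genes the count of calls moved from 448 (145 higher, 303 lower) to 675 with library size alone, 679 with DESeq2 and 73 on unfiltered log2(TPM + 1). It ranged from 0 to 1012 with a library left out, and was 0 with embryo sex as a covariate (1611 genes at an unadjusted edgeR p under 0.05) and 0 in the females alone (902), a fit chosen after seeing the data. With the replicate number as a block it was 0 (2169 at an unadjusted p under 0.05), and the block gave -1.05 for Onecut2, -3.49 for Onecut3 and -2.15 for Onecut1. Deviations of same-numbered libraries from their group means had a correlation of -0.07 for the pair numbered 1 and 0.14 for that numbered 2. With only 2 wild-type libraries, 1 deviation mirrors the other, so these values cannot decide whether same-numbered samples were paired.

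Every list had 0 calls with the block and with embryo sex. On unfiltered log2(TPM + 1) the motor and dopaminergic list had 1 call, which was higher in EedcKO where the 2 of the edgeR fit were lower, and the others 0. DESeq2 called 15 ventral genes. On filtered log2(TPM + 1) and log2(TPM + 0.1) the retinal list had 2 calls each and the endoderm list 0 each, and the motor list had 1 on the latter. The endoderm list had 0 without a count filter. With a library left out, calls ranged from 0 to 1 (endoderm), 0 to 2 (motor), 0 to 4 (retinal), 0 to 5 (pan-neuronal), 0 to 7 (Cajal-Retzius), 0 to 9 (hypothalamic), 0 to 10 (temporal) and 0 to 11 (ventral). Fits that leave 1 wild-type library assume that it varies like the EedcKO group.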
